A study of Mus musculus with 6 samples.

Results

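The genes described here were 9 members of the bone morphogenetic protein (BMP) pathway, which were the ligands Bmp2, Bmp4 and Bmp6, the receptors Bmpr1a, Bmpr1b and Bmpr2, and the secreted antagonists Grem1, Nog and Chrdl1. They were chosen by name and role, with earlier results of these data known. All 9 were found among the 55487 gene identifiers of the count table. BMP ligands are secreted dimers that bind a complex of type I receptors (such as Bmpr1a and Bmpr1b) and type II receptors (such as Bmpr2), which phosphorylate Smad1, Smad5 and Smad9. These Smads join Smad4 in the nucleus and activate genes such as Id1. Secreted antagonists hold the ligands away from the receptors, and the pathway is known in skin for hair follicle cycling and in vessels for endothelial quiescence and sprouting.

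Poly(A) RNA was sequenced in 6 cultures of cells from the skin of C57BL/6 mice, labelled as endothelial cells and isolated with magnetic beads against CD31. Each isolation started from 4 to 6 mice that were 2 to 3 months old, so animals were pooled. The cells were held for 48 hours in normal glucose (5 mmol/L, n = 3) or high glucose (20 mmol/L, n = 3), and no other agent or allele separated the groups. The comparison asks how transcript levels in these cells differ when glucose is raised. Total counts per culture lay between 120192466 and 146881356, so that 3 counts, the limit that a count of 0 allows, corresponded to between 0.0204 and 0.0250 CPM, the unit used here for counts scaled to library size. Such limits cover counting error only.

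The endothelial label was checked against marker genes. Pecam1, which encodes CD31, had counts of 19, 12 and 19 in the cultures with normal glucose and of 9, 13 and 18 in those with high glucose. Of 15 endothelial markers, 11 averaged under 1 CPM and Sox17 had a count of 0 in every culture, and the 15 together summed to 20.6 to 21.5 CPM under normal and 19.5 to 20.2 CPM under high glucose. The 17 fibroblast markers summed to between 43369 and 46873 CPM in normal glucose and to between 76609 and 81370 CPM in high glucose. The data therefore went against the endothelial label, and the samples are called cultures here. The part of the change in fibroblast transcripts in the results below was not tested. In bulk RNA, fewer cells of a type and less RNA per cell cannot be told apart.

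Of the 9 BMP genes, 4 had lower transcript levels in high glucose (Bmp4, Bmp6, Bmpr1b and Grem1), 3 had higher levels (Bmpr2, Nog and Chrdl1) and 2 passed no threshold (Bmp2 and Bmpr1a). A gene was called when its adjusted P value in edgeR's quasi-likelihood test was under 0.05. All 9 passed the filter on low counts, and 19015 genes were tested, of which 14.5% were called lower, 16.9% higher and 31.4% in either direction. The changes ran in both directions within the receptors and within the antagonists, whereas both ligands that passed the threshold fell. The largest change was the rise of Chrdl1, a 4.74-fold difference between the group means. With a minimum absolute log2 fold change of 1 added, Bmp4 was the 1 gene lower and Chrdl1 the 1 gene higher, beside 2.85% and 2.08% of all tested genes and 4.93% in either direction. In 8 of the 9 genes the highest culture of one group lay below the lowest culture of the other, which was also the case for 46.4% of all tested genes. This held for 4 genes that were lower in high glucose (21.3% of all tested genes) and 4 that were higher (25.1%). With 3 cultures against 3, an exact permutation test of one gene cannot give a two-sided P value below 0.1, and all 8 genes reached it.

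**Figure D1:**
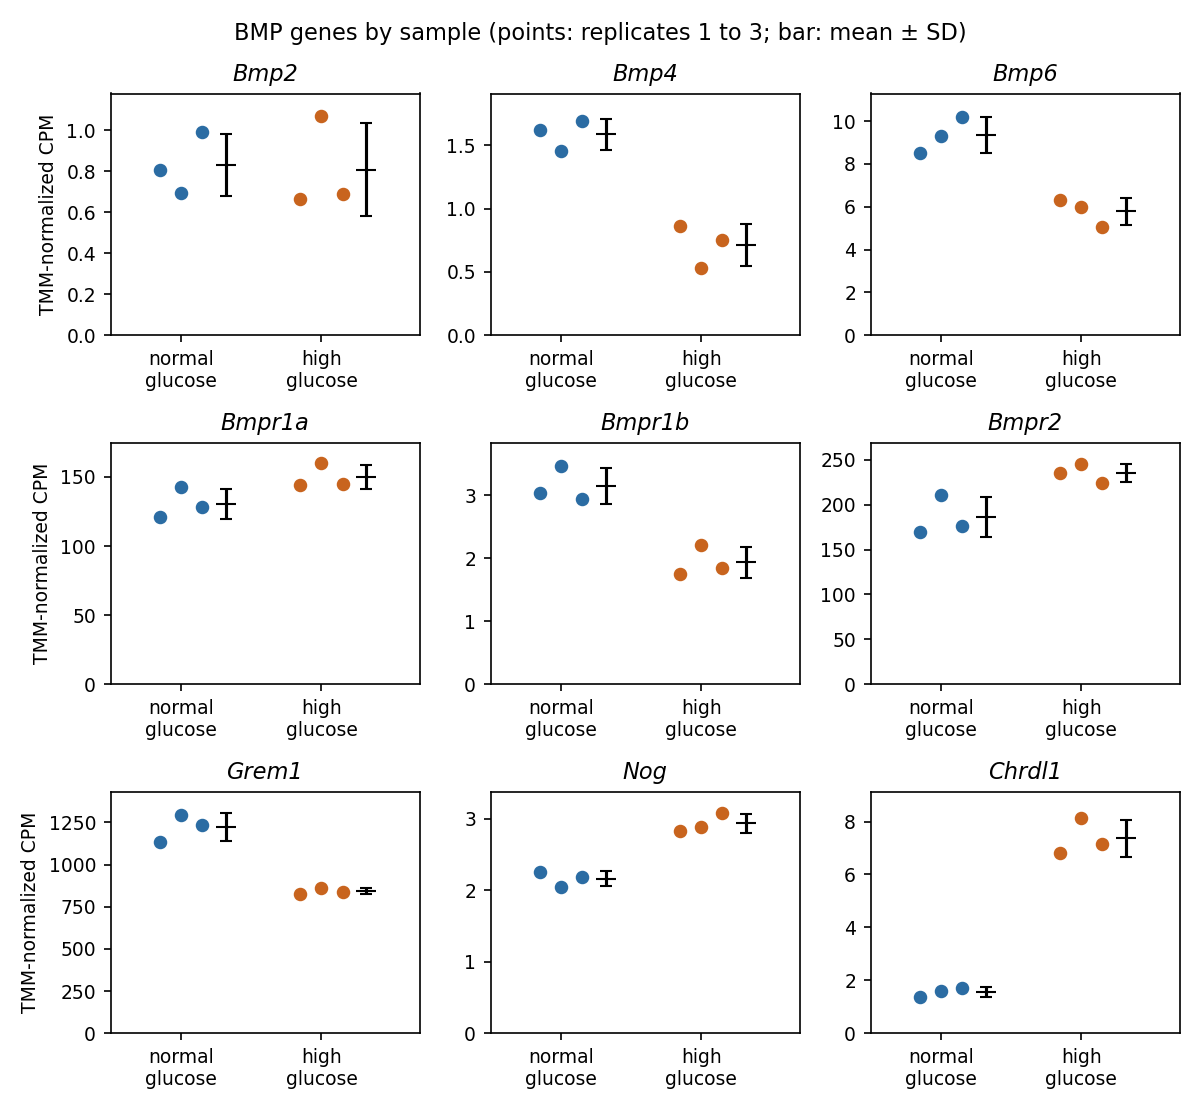
Level of each of the 9 BMP genes in CPM in each of the 6 cultures, one panel per gene with its own axis. Points are cultures in normal and high glucose, and bars give the mean and SD of 3 cultures. The cultures of the 2 groups overlapped only for Bmp2, and Chrdl1 rose from a mean of 1.55 to 7.36 CPM.

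**Figure D2:**
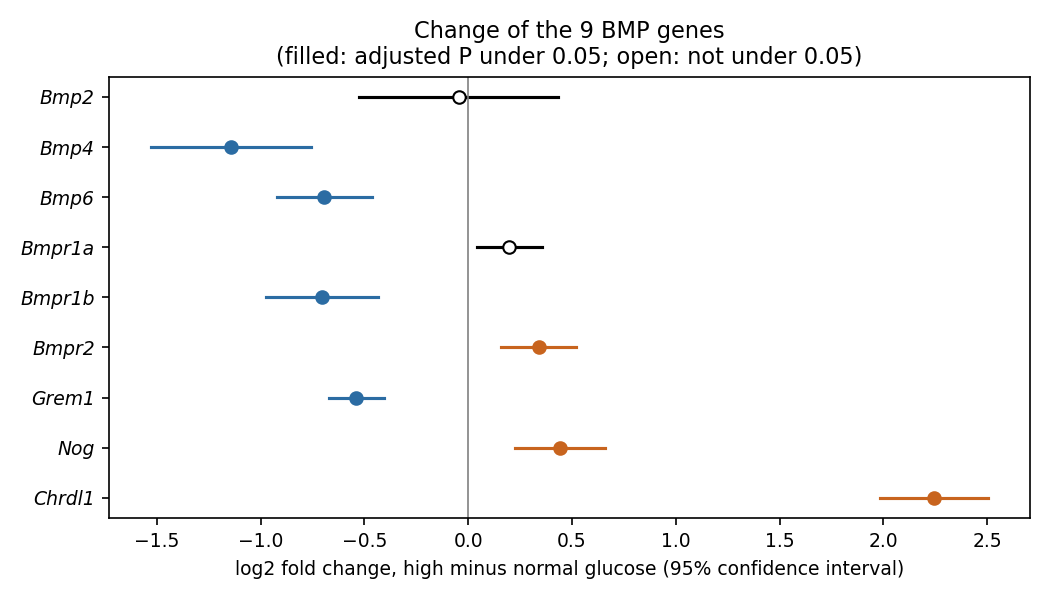
Log2 fold change of the 9 BMP genes in high compared with normal glucose, with 95% confidence intervals from the quasi-likelihood fit over 6 cultures. The intervals of Bmp4, Bmp6, Bmpr1b and Grem1 lay below 0 and those of Bmpr2, Nog and Chrdl1 above 0. That of Bmpr1a (open, not called) also lay above 0, at 0.04 to 0.35, and that of Bmp2 spanned 0 (-0.52 to 0.43).

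Among the ligands, Bmp4 and Bmp6 decreased and Bmp2 showed no difference beyond the spread between cultures. Bmp4 (ENSMUSG00000021835; GRCm38 chr14:46383520-46390669, minus strand) encodes a ligand of the same subgroup as Bmp2. Its levels were 1.62, 1.45 and 1.69 CPM in normal glucose and 0.860, 0.533 and 0.749 CPM in high glucose, from raw counts between 62 and 216. Every culture in high glucose was below every culture in normal glucose, and the lowest value was that of high glucose replicate 2. The mean fell by 55.0%, from 1.59 ± 0.121 CPM (SD, n = 3) to 0.714 ± 0.166 CPM (SD, n = 3), with a log2 fold change of -1.14 (SE 0.17, adjusted P = 0.000649). Of the tested genes, 455 had a lower log2 fold change.

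Bmp6 (ENSMUSG00000039004; chr13:38345107-38500302, plus strand), a ligand that is also known as a regulator of iron balance in the liver, was the most abundant of the 3 ligands. Its levels were 8.51, 9.32 and 10.2 CPM in normal glucose and 6.30, 5.98 and 5.06 CPM in high glucose, so the groups did not overlap. The mean fell by 38.1%, from 9.34 ± 0.843 to 5.78 ± 0.644 CPM (SD, n = 3 each), with a log2 fold change of -0.69 (SE 0.10, adjusted P = 0.000585). The exons of Bmp6 overlap those of Txndc5, which lies on the opposite strand, over 224 bases, and whether the counting used strand is not given in the sources used here. Txndc5, an endoplasmic reticulum disulfide isomerase, went from 602 ± 17.7 to 656 ± 9.53 CPM with a log2 fold change of 0.12 (adjusted P = 0.0824), opposite in sign to Bmp6. Windows of 75 bases shared with another gene made up 3.92% of the Bmp6 exons.

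Bmp2 (ENSMUSG00000027358; chr2:133552159-133562885, plus strand), a ligand best known for bone formation, had counts of 101, 98 and 127 with normal glucose and of 94, 124 and 93 with high glucose. This corresponded to 0.807, 0.691 and 0.992 CPM against 0.663, 1.07 and 0.690 CPM, and the highest and the lowest of the 6 values were both in high glucose. The log2 fold change was -0.05 with a 95% confidence interval of -0.52 to 0.43 (adjusted P = 0.893). Its coefficient of variation between cultures was 18.3% in normal and 28.0% in high glucose, where counting error alone would give 9.59% and 9.82%. Without high glucose replicate 2, which held the highest of the 6 values, the log2 fold change was -0.307 (SE 0.194), also not called.

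Because counts grow with transcript length, levels of different genes were compared as CPM per kilobase of exon. On this scale the summed level of the 3 ligands went from 3.34 ± 0.273 to 2.03 ± 0.184 (SD, n = 3 each; exact permutation P = 0.1, the smallest possible). Bmp6 made up 71.8 ± 2.13% of the summed ligand level in normal and 73.0 ± 1.68% in high glucose, and these shares overlapped (exact permutation P = 0.6). The share of Bmp4 was 21.2 ± 1.61% in normal and 15.7 ± 3.73% in high glucose. The share of Bmp2 was 6.97 ± 0.853% in normal and 11.2 ± 3.02% in high glucose. Its own level was not higher, at 0.233 ± 0.0427 in normal and 0.227 ± 0.0635 CPM per kilobase in high glucose.

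The receptors changed in opposite directions. Bmpr1b (ENSMUSG00000052430; chr3:141837136-142169425, minus strand), a type I receptor known for its role in cartilage and ovary, had levels of 3.03, 3.46 and 2.94 CPM in normal glucose and 1.75, 2.21 and 1.85 CPM under high glucose. All 3 cultures in high glucose were lower than all 3 in normal glucose. The mean fell by 38.4%, from 3.14 ± 0.279 to 1.94 ± 0.243 CPM (SD, n = 3 each; log2 fold change -0.70, SE 0.12, adjusted P = 0.0015).

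Bmpr1a (ENSMUSG00000021796; chr14:34410734-34503341, minus strand) encodes the widely expressed type I receptor that is also called Alk3. It had levels of 121.1, 142.5 and 128.4 CPM in normal glucose and 144.5, 160.0 and 145.0 CPM in high glucose. The groups did not overlap, although the gap between normal glucose replicate 2 and the lowest culture in high glucose was small. The log2 fold change was 0.20 (SE 0.070, 95% confidence interval 0.04 to 0.35), and with an adjusted P value of 0.0551 the gene did not pass the threshold. Over the 17 alternatives its log2 fold change lay between 0.08 and 0.25 and its adjusted P value between 0.0158 and 0.399. It passed in 5 of them, among them DESeq2 (adjusted P = 0.0431) and without normal glucose replicate 2 (0.25, adjusted P = 0.0158). The log2 fold change was smallest with scaling to library size alone (0.08, adjusted P = 0.399), followed by the fit without normal glucose replicate 1 (0.13, adjusted P = 0.142).

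Bmpr2 (ENSMUSG00000067336; chr1:59763400-59879014, plus strand) encodes the type II receptor whose loss-of-function mutations are known in heritable pulmonary arterial hypertension. Its levels were 169.5, 211.4 and 176.7 CPM in normal glucose and 235.5, 245.1 and 224.7 CPM in high glucose. The groups did not overlap, and normal glucose replicate 2 stood nearest to the cultures in high glucose. The mean rose from 186 ± 22.4 to 235 ± 10.2 CPM (SD, n = 3 each; log2 fold change 0.34, SE 0.080, adjusted P = 0.00925). The call was lost without normal glucose replicate 3 (adjusted P = 0.056), without high glucose replicate 2 (adjusted P = 0.0542) and with scaling to library size alone (log2 fold change 0.22, adjusted P = 0.0602), and its adjusted P value over the 17 alternatives lay between 0.000457 and 0.0602.

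Per kilobase of exon, Bmpr1a was the more abundant type I receptor in every culture. Its level was 39.1 ± 1.83 times that of Bmpr1b with normal glucose and 73.1 ± 4.85 times with high glucose (SD, n = 3 each). The share of Bmpr1b in the summed level of both type I receptors was 2.50 ± 0.113% in normal and 1.35 ± 0.0900% in high glucose. The ratio of Bmpr2 to Bmpr1a on the same scale was 0.501 ± 0.0199 in normal and 0.555 ± 0.0183 in high glucose.

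The antagonists held both the most abundant of the 9 genes and the one that changed most. Grem1 (ENSMUSG00000074934; chr2:113746164-113758646, minus strand) encodes gremlin, which binds Bmp2, Bmp4 and Bmp7 and is known from fibroblasts and developing limbs. Its levels were 1134, 1295 and 1237 CPM in normal glucose and 825, 860 and 838 CPM in high glucose. The 3 cultures in high glucose lay close together and below all cultures in normal glucose. The mean fell by 31.2%, from 1222 ± 81.5 to 841 ± 17.5 CPM (SD, n = 3 each; log2 fold change -0.54, SE 0.059, adjusted P = 6.98e-05). By CPM per kilobase of exon Grem1 ranked 148 among the 18981 tested genes with a known length. Windows of 75 bases shared with other genes made up 1.09% of its exons.

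Chrdl1 (ENSMUSG00000031283; chrX:143285674-143394262, minus strand) encodes chordin-like 1, a secreted protein with cysteine-rich repeats that binds BMPs. Its levels were 1.35, 1.59 and 1.71 CPM in normal glucose and 6.80, 8.12 and 7.16 CPM in high glucose, with counts of 169, 226 and 219 against 964, 944 and 965. The gap between the groups was much wider than the spread within either. The mean rose from 1.55 ± 0.184 to 7.36 ± 0.683 CPM (SD, n = 3 each), with a log2 fold change of 2.24 (SE 0.12, 95% confidence interval 1.98 to 2.50, adjusted P = 4.03e-07). Only 33 tested genes had a higher log2 fold change, and no 75-base window of its exons was shared with another gene.

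Nog (ENSMUSG00000048616; chr11:89300638-89302332, minus strand) encodes noggin, which covers the receptor-binding faces of BMP dimers. Its levels were 2.26, 2.04 and 2.18 CPM in normal glucose and 2.83, 2.89 and 3.08 CPM in high glucose, without overlap. The mean rose from 2.16 ± 0.109 to 2.93 ± 0.128 CPM (SD, n = 3 each; log2 fold change 0.44, SE 0.098, adjusted P = 0.0066).

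**Figure D3:**
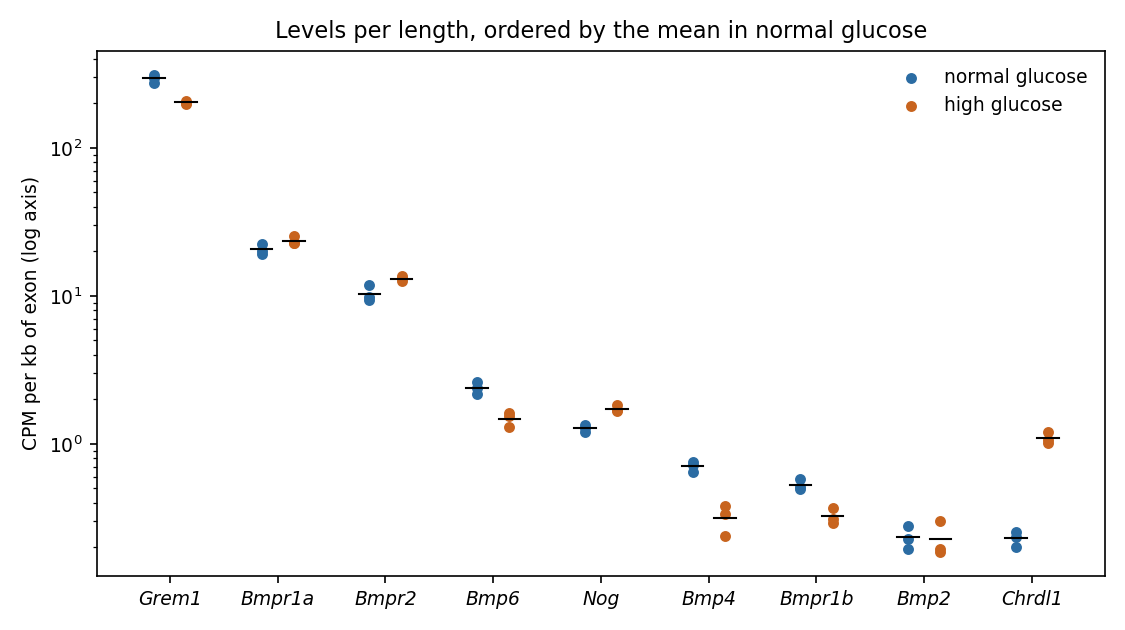
Level per kilobase of exon of the 9 BMP genes on a logarithmic axis, with the 6 cultures as points and group means as lines. Grem1 stood at 295 CPM per kilobase in normal and 203 in high glucose, far above the receptors Bmpr1a (20.6 and 23.6) and Bmpr2 (10.3 and 13.1), and Chrdl1 moved from the bottom of the order to above Bmpr1b and Bmp4.

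Although Chrdl1 and Nog rose, the summed level of the 3 antagonists was lower in high glucose, since Grem1 made up nearly all of it. Per kilobase of exon the sum went from 296 ± 19.6 to 206 ± 4.33 (SD, n = 3 each; exact permutation P = 0.1). Grem1 made up 99.5 ± 0.0490% of it in normal and 98.6 ± 0.0392% in high glucose, and Chrdl1 went from 0.0774% to 0.529%. The ratio of Grem1 to Chrdl1 went from 1291 ± 99.5 to 187 ± 13.0. The ratio of the summed antagonists to the summed ligands was 89.1 ± 7.49 in normal and 102 ± 9.99 in high glucose, and the groups overlapped (exact permutation P = 0.2). These sums cover only the listed genes. The 19 other secreted antagonists and modulators described below summed to 4569 to 4753 CPM in normal and 5920 to 6065 CPM in high glucose. That sum is not scaled to length and includes the proteases Tll1, Tll2 and Bmp1, so it is not a level of antagonists alone. Its most abundant gene was Fstl1, without which it was 1788 to 1859 CPM in normal and 2233 to 2293 CPM in high glucose. The ligand Gdf6, also left out, was at 2.75 and 1.17 CPM per kilobase.

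In normal glucose the order of the mean levels per kilobase of exon was Grem1, Bmpr1a, Bmpr2, Bmp6, Nog, Bmp4, Bmpr1b, Bmp2 and Chrdl1. Among neighbours in this order only Bmp2 (0.233 ± 0.0427) and Chrdl1 (0.230 ± 0.0272) overlapped. In high glucose the order was Grem1, Bmpr1a, Bmpr2, Nog, Bmp6, Chrdl1, Bmpr1b, Bmp4 and Bmp2, in which Nog (1.73 ± 0.0758) had passed Bmp6 (1.48 ± 0.165) and Chrdl1 (1.09 ± 0.101) had passed Bmpr1b, Bmp4 and Bmp2. Here Bmpr1b (0.325 ± 0.0408) overlapped Bmp4 (0.318 ± 0.0739), and Bmp4 overlapped Bmp2 (0.227 ± 0.0635).

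Promoter windows are shown for Grem1, the most abundant of the 9 genes, and for Bmp4, the ligand with the largest decrease. Of the 9 genes, 6 had an entry in the RefSeq promoter table (GRCm38.p6), and these are the 2 whose window lay outside the annotated gene. Each window holds the 250 bases before the transcription start. The Grem1 window lies at chr2:113758649-113758898 and the Bmp4 window at chr14:46390670-46390919, both on the minus strand. Capitals mark GGCGCC, a motif known from BMP-responsive elements, in Grem1 and CACGTG, the palindromic E-box, in Bmp4.
Grem1: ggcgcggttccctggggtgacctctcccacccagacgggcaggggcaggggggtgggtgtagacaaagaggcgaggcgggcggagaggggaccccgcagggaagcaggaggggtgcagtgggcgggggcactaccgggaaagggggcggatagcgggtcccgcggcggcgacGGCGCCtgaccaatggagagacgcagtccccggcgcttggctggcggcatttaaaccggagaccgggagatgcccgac
Bmp4: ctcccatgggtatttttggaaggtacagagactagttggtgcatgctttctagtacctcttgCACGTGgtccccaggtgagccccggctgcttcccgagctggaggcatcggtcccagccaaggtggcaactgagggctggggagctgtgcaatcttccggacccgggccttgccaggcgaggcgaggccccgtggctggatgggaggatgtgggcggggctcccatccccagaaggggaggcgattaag
The GGCGCC motif began 78 bases before the start of Grem1, and CACGTG 188 bases before that of Bmp4. Both motifs read the same on either strand and do not overlap one another. GGCGCC was also present in windows of Bmpr1a and Bmpr2, and CACGTG in that of Bmp6, while the 3 windows of Bmpr1b held neither. Among all 32851 windows of the same length, 9.59% held GGCGCC and 6.02% held CACGTG. The full Smad box GTCTAGAC was in none of the members' windows and in 0.167% of all windows, and its first part GTCT, or AGAC on the other strand, was in 82.9% of all windows. The CCAAT box (CCAAT or ATTGG), which 33.8% of all windows hold, was present in Grem1, Bmpr1a and 1 window of Bmpr1b. TATAAA or its reverse complement TTTATA, held by 12.4%, was present only in that same Bmpr1b window among the members. The GC content was 72.0% for Grem1 and 63.2% for Bmp4, against a median of 52.4% over all windows. A match is a description of the letters and not a bound site.

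Other genes of the pathway were described from lists by role, which were also chosen with earlier results of these data known. Of 53 further ligands, receptors, secreted modulators and Smad regulators, 47 were tested, and 6 were called lower, 22 higher and 19 in neither direction. Their median log2 fold change was 0.19, compared with 0.01 over all tested genes. Over all tested genes 14.5% were called lower and 16.9% higher, shares to set beside the list counts below. The share called higher in these lists was larger than that 16.9%, which describes these lists and was not tested further. The count of 22 fell to 13 with scaling to library size alone.

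Among 11 other ligands 8 were tested, of which 1 fell and 2 rose. The exception to the low levels of this list was Gdf6, a BMP-type growth factor known from joints and eyes, which fell from 9.73 ± 0.451 to 4.12 ± 0.295 CPM (log2 fold change -1.24, adjusted P = 2.97e-06). Bmp5 rose from 0.829 ± 0.0692 to 1.23 ± 0.219 CPM (log2 fold change 0.57, adjusted P = 0.0214), a call that was lost in 3 of 17 alternatives. Bmp3, which opposes other BMPs in bone, was called higher from 0.103 ± 0.0636 to 0.255 ± 0.0277 CPM (log2 fold change 1.30, adjusted P = 0.0378), but the call was lost in 8 of 16 alternatives, with adjusted P values between 0.00547 and 0.11. Bmp8a stood at 2.23 ± 0.282 and 2.14 ± 0.215 CPM (log2 fold change -0.06, adjusted P = 0.768).

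Among 10 other receptors and co-receptors 9 were tested, of which 6 rose and 1 fell. Neo1, the neogenin receptor that binds repulsive guidance molecules, rose from 125 ± 16.6 to 239 ± 2.92 CPM (log2 fold change 0.93, adjusted P = 2.13e-05). Acvrl1, the type I receptor also called Alk1, rose from 41.0 ± 0.474 to 58.6 ± 1.21 CPM (adjusted P = 2.37e-05). Rgma, a BMP co-receptor and ligand of neogenin, rose from 144 ± 16.1 to 176 ± 4.49 CPM (log2 fold change 0.29, adjusted P = 0.0165), and this call was lost in 4 of 17 alternatives. Its relative Rgmb was the 1 gene of this list that fell, from 56.9 ± 0.885 to 47.5 ± 0.295 CPM (log2 fold change -0.26, adjusted P = 0.00205). Eng, which encodes the co-receptor endoglin, stood at 155 ± 12.3 and 140 ± 3.48 CPM (log2 fold change -0.14, adjusted P = 0.113). It was called lower in 3 of 17 alternatives, with upper quartile scaling (-0.19, adjusted P = 0.0436), with scaling to library size alone (-0.26, adjusted P = 0.00986) and without normal glucose replicate 1 (-0.22, adjusted P = 0.00465), and its adjusted P value over all of them lay between 0.00465 and 0.305.

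Among 19 other secreted antagonists and modulators 17 were tested, of which 8 rose and 3 fell. Chordin and its relatives, the family to which Chrdl1 belongs, were among those that rose. Chrd increased from 8.95 ± 0.226 to 13.6 ± 0.597 CPM (log2 fold change 0.60, adjusted P = 7.81e-05) and Chrdl2 from 0.0805 ± 0.0466 to 0.297 ± 0.0360 CPM (log2 fold change 1.87, adjusted P = 0.00403), the latter from counts between 4 and 47. Bmper, a secreted BMP-binding protein with chordin-type repeats, rose from 62.2 ± 1.87 to 89.8 ± 2.20 CPM (adjusted P = 2.75e-05). The abundant Fstl1 (follistatin-like 1) rose from 2844 ± 57.3 to 3739 ± 104 CPM and Nbl1, a relative of gremlin, from 291 ± 17.3 to 406 ± 10.5 CPM (adjusted P = 0.000182 and 0.00013). The genes that fell included the tolloid-like proteases Tll1 and Tll2, members of a protease family that cleaves chordin. Tll1 decreased from 8.99 ± 0.807 to 3.99 ± 0.251 CPM (log2 fold change -1.17, adjusted P = 8.68e-06) and Tll2 from 2.46 ± 0.317 to 0.783 ± 0.0930 CPM (log2 fold change -1.65, adjusted P = 1.42e-05). The far more abundant Bmp1, of the same protease family, rose from 841 ± 21.6 to 1090 ± 50.1 CPM (log2 fold change 0.37, adjusted P = 0.000456).

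Among 13 Smads and their regulators, all tested, 6 rose and 1 fell. Ctdsp2, a phosphatase that acts on Smads, rose from 502 ± 37.1 to 653 ± 11.7 CPM (log2 fold change 0.38, adjusted P = 0.000965). The Smad corepressor gene Ski was called higher, from 276 ± 13.9 to 314 ± 7.91 CPM (log2 fold change 0.19, adjusted P = 0.0259), but lost the call in 9 of 17 alternatives.

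Of 12 known BMP target genes 11 were tested, with a median log2 fold change of -0.17. Of these, 4 were called lower, 2 higher and 5 in neither direction. Id1, an inhibitor of basic helix-loop-helix factors, was at 85.7, 67.4 and 75.9 CPM in normal glucose and 24.8, 24.0 and 21.7 CPM in high glucose. It fell below every culture in normal glucose (log2 fold change -1.70, adjusted P = 4.05e-07). Its relative Id4 fell from 16.9 ± 2.79 to 7.89 ± 0.286 CPM (log2 fold change -1.10, adjusted P = 3.21e-05). Smad7, an inhibitory Smad, fell from 31.9 ± 0.702 to 21.3 ± 0.962 CPM (log2 fold change -0.59, adjusted P = 2.31e-05). Id3 was at 326 ± 21 and 290 ± 4.05 CPM (log2 fold change -0.17, adjusted P = 0.0451), a call that was lost in 5 of 17 alternatives. The homeobox gene Msx1 moved the other way, from 1.64 ± 0.149 to 2.57 ± 0.276 CPM (log2 fold change 0.65, adjusted P = 0.00258). Runx2 was also called higher (log2 fold change 0.18, adjusted P = 0.0357). Called in neither direction were Id2, the inhibitory Smad gene Smad6, Atoh8, Msx2 and Hey1. Their log2 fold changes were -0.09, 0.10, 0.05, -0.54 and -0.58, with adjusted P values of 0.304, 0.259, 0.551, 0.0605 and 0.0791.

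**Figure D4:**
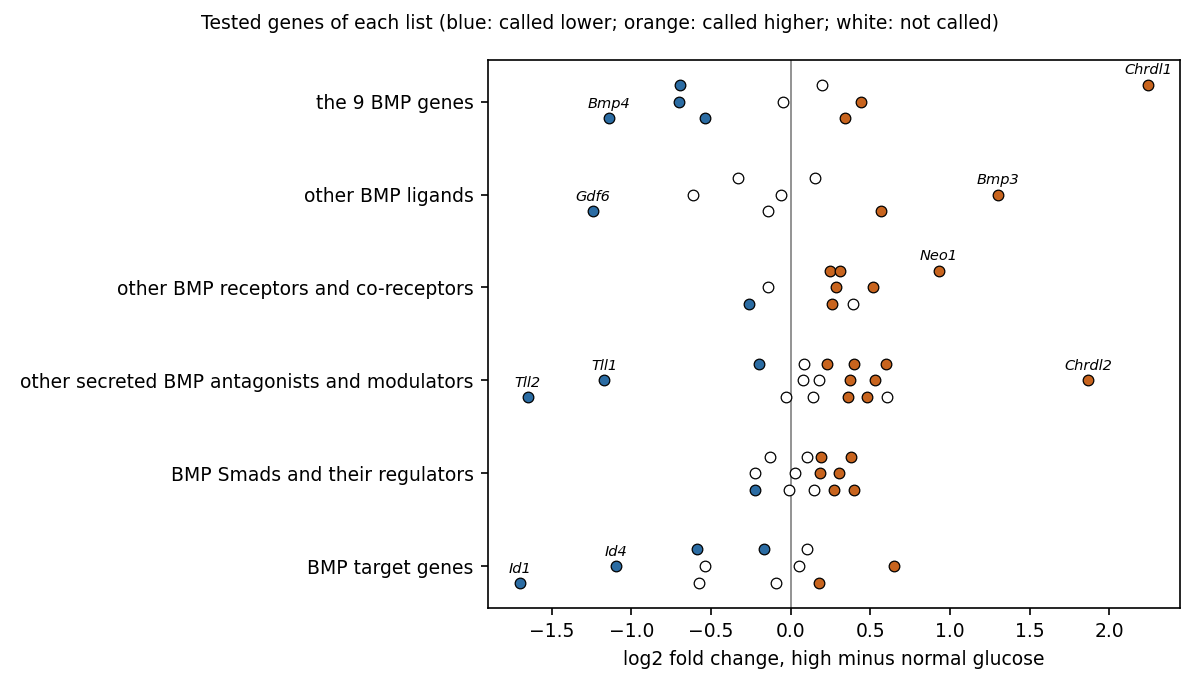
Log2 fold change in high compared with normal glucose of each tested gene in the lists, with one point per gene. Genes called lower are blue, genes called higher orange and genes called in neither direction white. The receptors and the secreted modulators held more genes called higher (6 and 8) than lower (1 and 3), and the targets more called lower (4) than higher (2). Over all tested genes 14.5% were called lower and 16.9% higher.

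Genes overlapping these on the opposite strand include Thpo for Chrd, Fpgs for Eng, Gm16031 for Acvrl1, Gm26903 for Bmp5, A730056A06Rik for Rgma, and A330033J07Rik and Gm49291 for Id4, and reads of such pairs cannot be told apart if the counting did not use strand. For the 9 BMP genes, Bmpr1a overlaps Gm17110, which stood at 0.291 and 0.320 CPM, and Bmp4 overlaps Gm15217, which had a count of 0 in every culture.

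For Chrdl1, the called gene with the largest change, and Grem1, the most abundant, the genes with the most similar pattern over the 6 cultures were found by the root mean square difference of centred log2 CPM. The closest to Chrdl1 were Abi3bp (0.0917), the fibrillin gene Fbn2 (0.128) and Fndc1 (0.150). Abi3bp rose from 81.5 ± 8.86 to 382 ± 16.9 CPM. The closest to Grem1 were Fam49a (0.0115), the collagenase gene Mmp8 (0.0224) and the heparan sulfate sulfotransferase gene Hs6st2 (0.0229). Mmp8 fell from 86.8 ± 5.18 to 58.2 ± 1.94 CPM. These are descriptions of 6 values per gene.

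**Figure D5:**
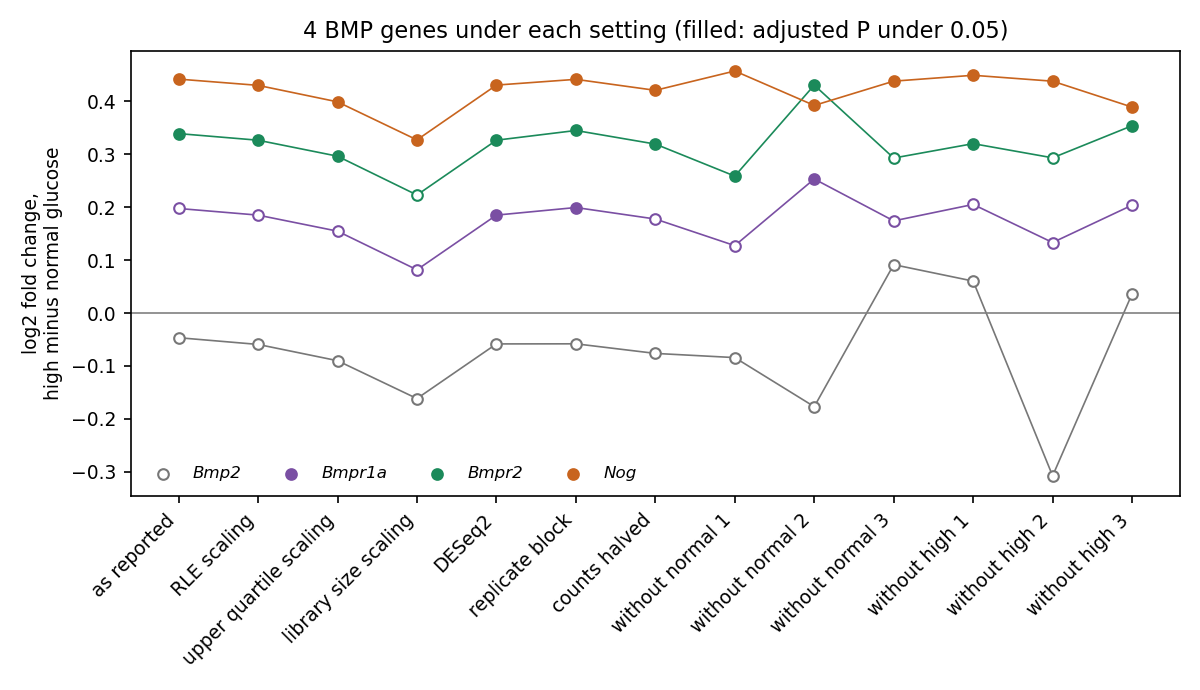
Log2 fold change in high compared with normal glucose of Bmp2, Bmpr1a, Bmpr2 and Nog under 13 settings, filled where the adjusted P value was under 0.05. Nog was called under each setting shown, Bmpr2 lost its call with library size scaling and without 2 of the cultures, Bmpr1a gained one under some settings, and Bmp2 lay on either side of 0 without one being called.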

How the data were processed

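Poly(A) RNA-seq counts of 6 cultures (3 per group, assigned by the labels) were analysed. The authors trimmed reads with Trimmomatic, aligned them to GRCm38 (mm10) with HISAT2, derived raw counts per gene with StringTie and deposited them without normalization. Versions, annotation and strand setting are not given in the sources used here. The labels name TRIzol and DNBSeq, whereas the paper's methods name another RNA kit and sequencer.

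Here, edgeR 4.0.16 (R 4.3.3) was used for filtering with filterByExpr (a count of at least 10, a total of at least 15), TMM normalization and the quasi-likelihood test of high against normal glucose, with Benjamini-Hochberg adjustment over 19015 genes and a threshold of 0.05. CPM use TMM-scaled library sizes. SE is the absolute log2 fold change over the square root of F. Positions, exons and lengths came from GENCODE M21 (GRCm38). Symbols matched 55141 of 55487 identifiers. The procedure was tested on data simulated with the dispersions fitted here, so that test cannot check those dispersions.

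The members and lists were chosen with earlier results of these data known. Named are all 9 BMP genes, and from the other lists genes called with an absolute log2 fold change of at least 0.5 or among the 2 highest per length in their list, with the most abundant cell type markers, Pecam1 and Cdh5, the 3 genes closest in pattern to Chrdl1 and to Grem1, and genes overlapping a member. Also named are genes that overlap other named pathway genes on the opposite strand, and markers without a count in any culture. Bmp1, Rgmb, Runx2, Id2, Smad6, Atoh8, Msx2 and Hey1 were added after their values were seen. The study's figure legends give 3 per group of mice, and the labels pool 4 to 6 mice per isolation without saying whether each replicate was an isolation of its own. P values set the difference between the group means against the spread between cultures within a group, part of which may be technical. Total counts were between 120192466 and 146881356 per sample. Both reads of a pair may have been counted, so halved counts were tried. Alternatives were other scalings, filters, DESeq2 1.42.0, a likelihood ratio test, a robust fit, a replicate block, summed symbols and leaving out each sample.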

Additional observations from a re-analysis of the deposited data

How the results depend on the processing

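Each gene was refitted under 17 alternatives. Bmp4, Bmp6, Bmpr1b, Grem1, Nog and Chrdl1 kept direction and call in all of them, with log2 fold changes of -1.32 to -0.99, -0.81 to -0.62, -0.82 to -0.64, -0.65 to -0.51, 0.33 to 0.46 and 2.13 to 2.31. Bmp2, Bmp3 and Chrdl2 had no value under the filter at 1 CPM. Without one culture, Bmp2 ranged from -0.307 to 0.0913 (above 0 without normal glucose replicate 3, high glucose replicate 1 at 0.060 or high glucose replicate 3 at 0.036) and Bmp8a from -0.18 to 0.0061, neither called. Bmpr1a gained a call in 5 alternatives, and Bmpr2 lost its call in 3. With a minimum absolute log2 fold change of 1, 1 BMP gene was lower and 1 higher, and 3 and 2 of the other pathway genes. With an adjusted P value under 0.01, 14 of the other pathway genes were higher, against 22 at 0.05. Scaling to library size alone moved the median over all tested genes by -0.115 on the log2 scale, and the share of all calls that were lower was 72.9%, against 46.2%. Under it 2 BMP genes were higher and 4 lower, and of the other pathway genes 13 were higher and 9 lower. Without one culture, 4 BMP genes were lower each time and 2 to 4 higher, and of the other pathway genes 4 to 9 were lower and 15 to 22 higher. Without high glucose replicate 3, 4 were lower, and without high glucose replicate 1, 15 were higher.

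Whether the shared replicate numbers paired the cultures is not stated in the sources used here. Deviations from the group means of same-numbered cultures correlated at -0.025, 0.0038 and 0.013. Those of differently numbered cultures correlated at between -0.043 and 0.041. Deviations from the mean of so few cultures depend on one another, so these correlations cannot decide whether the cultures were paired. With a replicate block, 4 BMP genes were lower and 4 higher (Bmpr1a, adjusted P = 0.028), and 6 and 19 of the other pathway genes. The block ended the calls of Bmp3, Ski and Id3 (adjusted P = 0.0576, 0.0563 and 0.0628).

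Depth limits Bmp3 and Chrdl2, which had a count of 4 in one culture with normal glucose. With 3 cultures a group, small differences such as that of Bmpr1a fell on either side of the threshold.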

Other observations

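Markers of other cell types that skin cultures can hold were summed per culture, as lists fixed by cell type. Of 9 dermal papilla and sheath markers 7 were tested, with 3 called lower and 3 higher, and their sum was 2790 to 3193 CPM in normal and 1955 to 1971 CPM in high glucose. This fall in the sum lay in Crabp1 (2382 ± 284 to 831 ± 21.3 CPM, adjusted P = 5.03e-07). The rest of the list summed to 563 to 719 CPM in normal and 1126 to 1148 CPM in high glucose, and Vcan, its next most abundant gene, rose from 590.0 ± 77.3 to 1067 ± 11.8 CPM. Of 11 mural and smooth muscle markers 10 were tested, with 6 called lower and 2 higher, and the sum was 644 to 720 CPM in normal and 542 to 568 CPM in high glucose. Of the 17 fibroblast markers 12 were called higher and 3 lower, and the most abundant were Col3a1 (12421 ± 651 to 32515 ± 1662 CPM), Col1a2 (10558 ± 660 to 14743 ± 413 CPM) and Col1a1 (7771 ± 582 to 13140 ± 585 CPM).

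Macrophage markers summed to 17.6 to 19.8 CPM in normal and 26.9 to 27.8 CPM in high glucose, although 3 of the 5 tested were called lower and 1 higher, and C1qb had a count of 0 in every culture. The gene called higher was Cd14 (9.47 ± 0.555 to 21.1 ± 0.0449 CPM), and the rest of the list summed to 8.63 to 9.78 CPM in normal and 5.87 to 6.66 CPM in high glucose. Adipocyte markers summed to 240 to 292 CPM in normal and 279 to 318 CPM in high glucose, with 3 of 5 tested called higher. Keratinocyte markers summed to 4.26 to 5.16 CPM in normal and 4.75 to 5.13 CPM in high glucose, with 1 of 4 tested called higher. Lymphatic endothelial markers summed to 6.69 to 7.89 CPM in normal and 7.78 to 8.65 CPM in high glucose, with 1 of 3 tested called lower, and Ccl21a had a count of 0 in every culture. Of the 9 endothelial markers tested, Cdh5 (1.80 ± 0.0797 to 0.876 ± 0.0806 CPM) and Egfl7 (11.1 ± 0.740 to 9.44 ± 0.153 CPM) were called lower, and Tek (1.29 ± 0.134 to 2.04 ± 0.127 CPM, adjusted P = 0.00219) and Erg (0.0373 ± 0.0205 to 0.106 ± 0.0209 CPM, adjusted P = 0.0453) higher. Crabp1, Cd14, Tek and Erg, and the sums without Crabp1, Cd14 or Fstl1, were chosen after their values were seen. The part of any of these lists in the values of the BMP genes was not tested.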
